A study of Mus musculus with 2 samples.

Results

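The claudin and tight junction genes described here are Cldn1, Cldn3, Cldn4, Cldn5, Cldn6 and Cldn7, Ocln, Tjp1 and F11r. They were chosen by symbol: every probe set that the platform annotation assigns to exactly 1 of these symbols was taken, which gave 17 of 45101 probe sets and 9 of 18194 genes. The RNA came from 1 mouse embryonic stem (ES) cell line, ESSP9, whose genotype is given as Del1.3MbWBS, a 1.3 Mb deletion in the Williams-Beuren syndrome (WBS) region, and it was measured on 2 Affymetrix arrays labelled as biological replicates 1 and 2. In people, Williams-Beuren syndrome follows the loss of a block of neighbouring genes that is kept in large part in the mouse. The cells were grown on feeder cells with leukaemia inhibitory factor and 20% serum replacement. The labels do not say which genes or how many copies were lost, nor whether the replicates were separate cultures, so the spread between them may be technical. No line without the deletion was analysed here, so an effect of the deletion on these genes cannot be read from the values.

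Tight junctions seal the space between neighbouring epithelial or endothelial cells close to their apical side. Claudins are membrane proteins that polymerise into the strands of the junction, and the set of claudins in a cell decides which ions and small molecules pass. Occludin and the junctional adhesion molecules sit beside them in the membrane, and the ZO scaffold proteins tie them to actin. Mouse ES cells grow as compact colonies held together by E-cadherin, and the first full tight junctions of the embryo form in the trophectoderm.

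Cldn3 and Cldn4 lie next to each other in the WBS segment of chromosome 5, and the bases before their transcription starts are shown because they are the members that the deleted region could hold. Those of Tjp1 and Cldn1 are shown with them as the members whose values lay farthest above and farthest below background. Each sequence is the 250 bases before the start in the RefSeq promoter table for GRCm38.p6, 5′ to 3′ on the strand of the gene. Capitals mark the E-box CAGGTG or its reverse complement CACCTG, the site recognised by the Snail and Zeb repressors of epithelial genes.
Cldn3, chr5:134985964-134986213, plus strand: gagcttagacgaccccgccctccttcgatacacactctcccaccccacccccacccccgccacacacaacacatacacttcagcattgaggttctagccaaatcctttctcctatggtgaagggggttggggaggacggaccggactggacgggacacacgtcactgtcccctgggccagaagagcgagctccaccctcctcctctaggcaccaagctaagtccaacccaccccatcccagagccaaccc
Cldn4, chr5:134946935-134947184, minus strand: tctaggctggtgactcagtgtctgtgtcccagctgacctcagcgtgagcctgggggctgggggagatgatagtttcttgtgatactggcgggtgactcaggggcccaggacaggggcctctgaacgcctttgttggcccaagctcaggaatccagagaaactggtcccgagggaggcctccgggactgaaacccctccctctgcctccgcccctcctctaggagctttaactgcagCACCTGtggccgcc
Tjp1, chr7:65371245-65371494, minus strand: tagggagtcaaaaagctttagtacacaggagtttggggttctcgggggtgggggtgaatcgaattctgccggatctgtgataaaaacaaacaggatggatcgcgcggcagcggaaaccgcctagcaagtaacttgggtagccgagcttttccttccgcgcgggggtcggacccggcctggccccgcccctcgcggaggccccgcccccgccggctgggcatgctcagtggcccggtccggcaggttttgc
Cldn1, chr16:26371840-26372089, minus strand: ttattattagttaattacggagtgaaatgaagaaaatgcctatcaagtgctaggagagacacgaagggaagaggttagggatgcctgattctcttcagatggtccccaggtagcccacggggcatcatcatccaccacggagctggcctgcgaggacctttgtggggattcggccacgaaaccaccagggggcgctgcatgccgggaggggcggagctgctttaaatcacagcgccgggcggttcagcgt

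The values are log2 expression values that the authors made with RMA (robust multi-array average), 1 per probe set and array. The median over all probe sets was 6.01 on replicate 1 and 6.01 on replicate 2. Background was set from 39 olfactory receptor genes, whose transcripts are not expected in ES cells: a probe set counted as above background when both arrays and their mean exceeded the 95th percentile of these genes. That threshold was 5.59 for the mean, 5.60 for replicate 1 and 5.58 for replicate 2. Probes differ in affinity, so each value is read against this threshold and not as an abundance relative to another gene. Means are given ± SD over the 2 arrays (n = 2).

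In this culture the scaffold gene Tjp1 and the adhesion gene F11r lay far above background, Cldn3, Cldn4, Cldn6 and Cldn7 lay less than 1 log2 unit above it, and Cldn1, Cldn5 and Ocln were not above it. Taking for each gene its brightest probe set, 6 of the 9 genes were above background, beside 68.4% of all genes. Over single probe sets the count was 8 of 17 (47.1%), beside 61.8% of all probe sets with 1 gene symbol. With vomeronasal and taste receptor genes as the background it was 4 of 17. Of the 17 probe sets, 11 had a mean within 1 log2 unit of the threshold, which was so for 30.3% of all probe sets with 1 gene symbol.

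**Figure D1:**
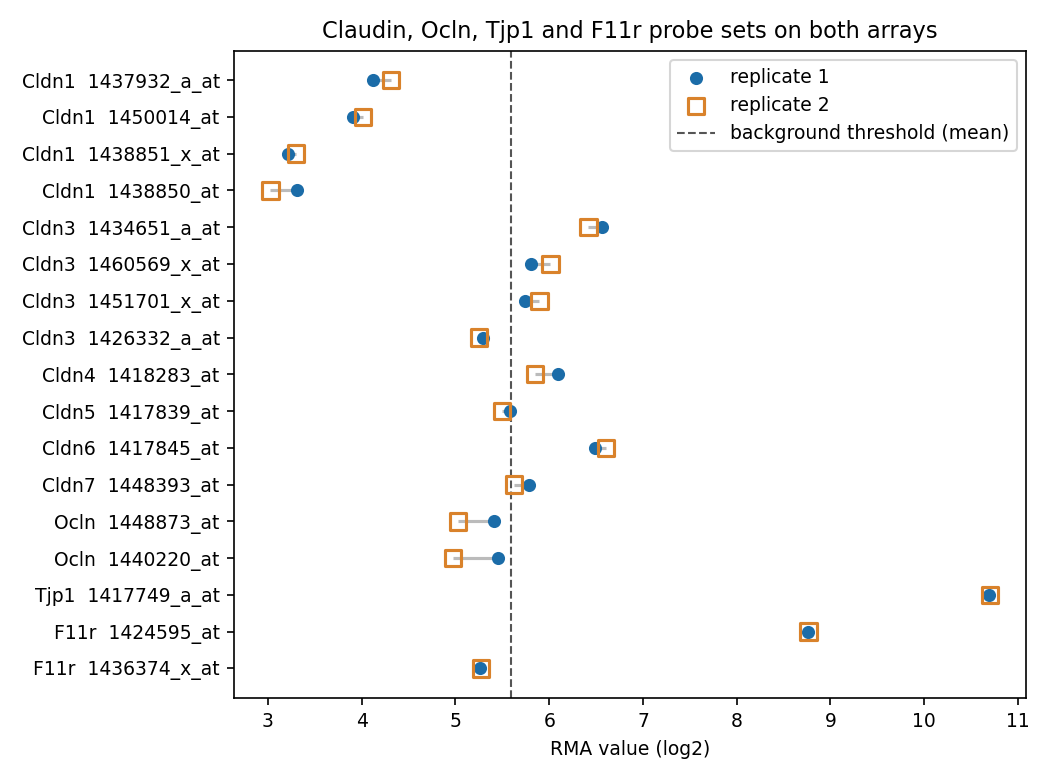
RMA values (log2, horizontal axis) of the 17 probe sets of the 9 genes on replicate 1 (filled circles) and replicate 2 (open squares); the dashed line is the background threshold for the mean, 5.59. Tjp1 and one F11r probe set lie far to the right of the line, the Cldn1 probe sets lie far to the left, and the means of the other 11 lie within 1 log2 unit of it.

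Cldn3 and Cldn4 encode claudins of many epithelia and are known as receptors of the Clostridium perfringens enterotoxin. Cldn3 has 4 probe sets. The brightest, 1434651_a_at, was at 6.56 on replicate 1 and 6.42 on replicate 2, a mean of 6.49 ± 0.10. Probe set 1460569_x_at was at 5.81 and 6.01, and 1451701_x_at at 5.74 and 5.90, on replicates 1 and 2. The remaining one, 1426332_a_at, was at 5.30 and 5.25, below background on both arrays. The Cldn3 probe sets thus fell on both sides of the threshold. The suffix _a of 1434651_a_at and 1426332_a_at marks probes shared between transcripts of the same gene. The suffix _x of the other probe sets marks probes open to cross-hybridisation. Both kinds were counted as shared probe sets here, so no Cldn3 value was left without shared probe sets.

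Cldn4 has 1 probe set, 1418283_at, which was at 6.09 on replicate 1 and 5.85 on replicate 2, a mean of 5.97 ± 0.17. Both arrays were above the threshold, replicate 2 by 0.27 log2 units. With vomeronasal and taste receptor genes in place of olfactory receptors, which gave a threshold of 6.06, Cldn4 was no longer above background. In the reference gene order Cldn4 and Cldn3 follow Tmem270, Cldn13 and Mettl27 and precede Abhd11 and Stx1a.

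Cldn13, a further claudin gene of this segment, was at 4.71 on replicate 1 and 4.46 on replicate 2, not above background. Mettl27, a methyltransferase-like gene, was at 7.52 and 7.35, and the hydrolase gene Abhd11 at 9.40 and 9.44. Of the 3 claudin genes of the segment, Cldn3 (on 3 of its 4 probe sets) and Cldn4 were above background and Cldn13 was not. This stands beside 68.4% of all genes. The flanking genes also fell on both sides. Mettl27 and Abhd11 were above background, and Tmem270, at 5.64 on replicate 1 and 5.57 on replicate 2, was not.

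**Figure D2:**
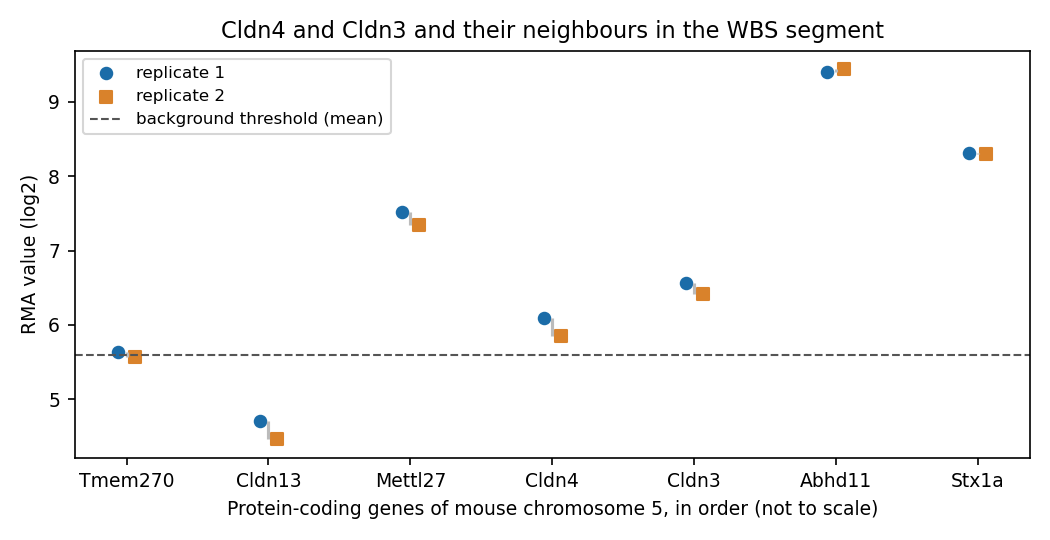
RMA values (log2, vertical axis) of 7 neighbouring protein-coding genes of chromosome 5 in gene order, not to scale, on replicate 1 (circles) and replicate 2 (squares); the dashed line is the background threshold for the mean. Cldn13 lies below the line, Tmem270 on it, Cldn4 and Cldn3 less than 1 log2 unit above it, and Mettl27, Abhd11 and Stx1a higher. Heights of different genes rest on different probes and do not rank their abundance.

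Cldn6, a claudin of embryonic epithelia, was at 6.49 on replicate 1 and 6.61 on replicate 2 on its only probe set, 1417845_at, a mean of 6.55 ± 0.084. It stayed above background under each threshold tried, from 5.07 to 6.06. Cldn7, a claudin found along the lateral membrane of gut and kidney epithelium, was at 5.79 and 5.62 (1448393_at), a mean of 5.71 ± 0.12. It exceeded the threshold of replicate 2 by 0.046 log2 units, less than the SD between its own replicates. At the 99th percentile of olfactory receptor genes, a threshold of 5.66, it was not above background.

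Cldn5, the main claudin of endothelium and of the blood-brain barrier, was at 5.58 on replicate 1 and 5.50 on replicate 2 (1417839_at), a mean of 5.54 ± 0.056. It missed the threshold by 0.021 log2 units on replicate 1 and by 0.079 on replicate 2. Cldn7 was thus the member just inside the threshold and Cldn5 the one just outside. The mean of Cldn7 lay at 0.116 log2 units from it and that of Cldn5 at -0.050. Over all probe sets of their levels the SD of the replicate difference was 0.176 log2 units for Cldn7 and 0.182 for Cldn5. That SD describes a difference between 2 arrays and not the error of a mean. At the 90th percentile of olfactory receptor genes, a threshold of 5.07, Cldn5 was above background. Of 7 endothelial markers measured on the same arrays, Esam (6.75 ± 0.13), Kdr (6.67 ± 0.10) and Tek (6.15 ± 0.19) were above background, beside 68.4% of all genes. Cdh5, which encodes the cadherin that defines endothelium, was not (4.41 on replicate 1, 4.53 on replicate 2), nor were Plvap, Emcn and Vwf.

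Cldn1, the claudin on which the barrier of the epidermis depends, gave low values on each of its 4 probe sets. The brightest, 1437932_a_at, was at 4.12 on replicate 1 and 4.31 on replicate 2, and the dimmest, 1438850_at, at 3.31 and 3.03. Probe set 1450014_at was at 3.91 and 4.01, and 1438851_x_at at 3.22 and 3.30. Measured from the threshold, the 4 means lay at -1.37 to -2.42 log2 units, and none was above background under any threshold or probe set rule tried. A transcript present at a level that these probes cannot separate from background would look the same.

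Ocln encodes occludin, a 4-pass membrane protein of the junction strands. Its probe set 1448873_at was at 5.42 on replicate 1 and 5.03 on replicate 2, and 1440220_at at 5.45 and 4.98. The means, 5.22 ± 0.27 and 5.21 ± 0.34, were nearly equal, and all 4 values lay below the threshold of their array. Replicate 2 was lower on both probe sets, with differences of -0.39 log2 units for 1448873_at and -0.47 for 1440220_at. The central 95% of all probe sets of similar level ran from -0.40 to 0.36 log2 units, so 1440220_at lay outside it and 1448873_at just inside.

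Tjp1 encodes ZO-1, the PDZ scaffold that binds the tails of claudins, and it is also found at cell contacts of cells without tight junctions. Its only probe set, 1417749_a_at, was at 10.69 on replicate 1 and 10.70 on replicate 2, a mean of 10.69 ± 0.011, which is 5.11 log2 units above the threshold. F11r encodes JAM-A, an immunoglobulin-type adhesion molecule of epithelia, endothelia and leukocytes. It was at 8.76 on both replicates on 1424595_at (8.76 ± 0.0063), 3.17 log2 units above the threshold. Its other probe set, 1436374_x_at, was at 5.27 and 5.28, below background. The F11r call rests on 1424595_at alone.

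Between the replicates the 17 probe sets differed by a median of 0.0083 log2 units (replicate 2 minus replicate 1), beside 0.0070 for all probe sets. Of them 9 were higher on replicate 2 and 8 lower. Over the 17 the SD of this difference came to 0.202 log2 units and over all probe sets to 0.151; most of the 17 were near or below background. In the level bins from 3.71 to 6.01 the SD over all probe sets was 0.176 to 0.192, against 0.0668 in the bin that holds Tjp1. One of the 17, the Ocln probe set 1440220_at, lay outside the central 95% of its level bin, beside 5.06% of all probe sets. Of the 17, 0 differed by 1.5-fold or more, beside 0.191% of all probe sets, and 0 by 1 log2 unit or more, beside 0.00443%. Among members above background the largest difference was 0.24 log2 units, for Cldn4.

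**Figure D3:**
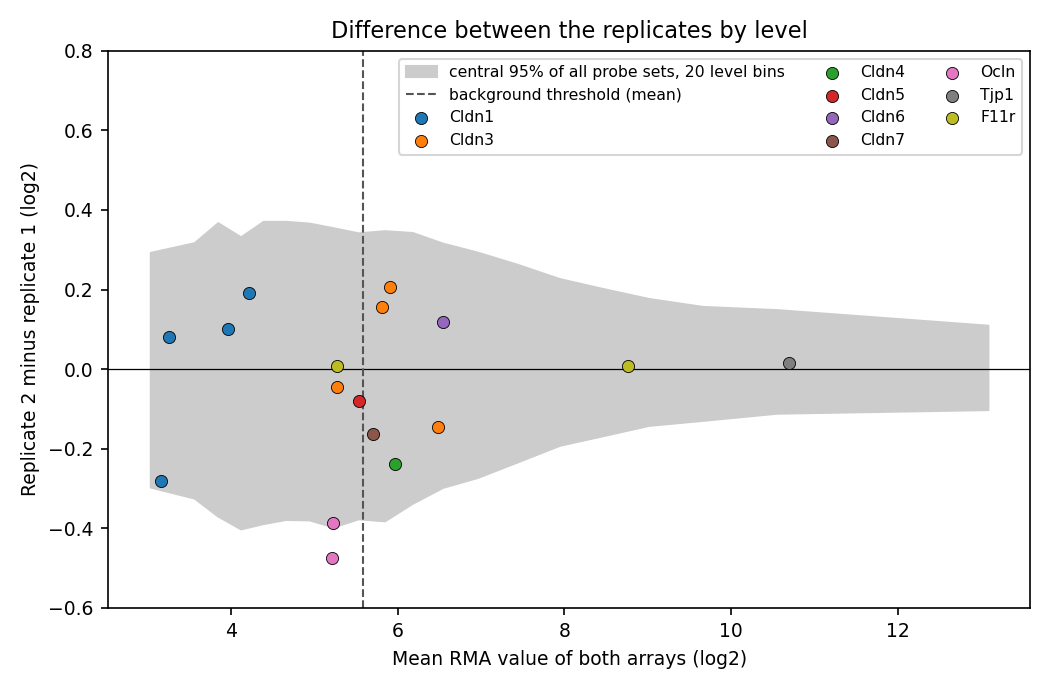
Replicate 2 minus replicate 1 (log2, vertical axis) against the mean RMA value (log2, horizontal axis) for the 17 probe sets, coloured by gene. The grey band is the central 95% of the difference over all 45101 probe sets in 20 level bins, drawn at bin midpoints; one Ocln probe set lies below the band, at -0.47, and the Tjp1 and F11r points lie near 0.

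Of the other claudin genes 2 of 14 measured were above background, Cldn12 and Cldn22, beside 68.4% of all genes. These claudin genes had 1.29 probe sets each and all genes 1.92, which lowers a count made on the brightest probe set. The count was 6 of 14 at the 90th percentile of olfactory receptor genes and 4 of 13 without shared probe sets, settings that lowered the threshold to 5.07 and 5.28. Cldn12, a claudin that lacks the PDZ-binding tail of its relatives, was at 9.97 on replicate 1 and 9.93 on replicate 2 on 1433781_a_at, and its second probe set, 1433782_at, was at 8.67 on both. Cldn22 was at 6.07 and 6.31. The other 12 had means between 3.18 (Cldn11, a claudin of myelin and testis) and 5.50 (Cldn14), among them Cldn2, a pore-forming claudin of leaky epithelia, at 5.47 and 5.17. Together with the 6 claudins among the members, 6 of 20 claudin genes were above background (30%), with 1.5 probe sets per gene. Counted by single probe sets it was 9 of 30, beside 61.8% of all probe sets with 1 gene symbol. At the 90th percentile 11 of 20 claudin genes were above background, beside 74.8% of all genes.

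Among 10 other membrane proteins of tight junctions 6 were above background, beside 68.4% of all genes, with 2.6 probe sets per gene. With a gene's median probe set value the count was 4, without Cxadr and Ildr2, beside 66.9% of all genes. The junctional adhesion molecules Jam2 and Jam3, relatives of F11r, were at 9.98 ± 0.033 and 8.79 ± 0.012. Lsr, which recruits tricellulin to the corners where 3 cells meet, was at 7.26 on replicate 1 and 7.23 on replicate 2. Jam3 and Lsr were each above background on 1 of 2 probe sets. The polarity gene Crb3 was at 7.08 ± 0.014, Cxadr, the coxsackievirus and adenovirus receptor, at 6.16 ± 0.091, and Ildr2 at 5.78 ± 0.11 on 1 of its 3 probe sets, the others not being above background. Tricellulin itself, Marveld2, was not above background (5.14 on replicate 1, 5.05 on replicate 2), nor was Marveld3 (4.61 and 4.48); these are the MARVEL-domain relatives of Ocln, and all 3 genes of that family were thus below the threshold.

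Of 15 measured genes of the cytoplasmic plaque and of apical polarity 13 were above background, beside 68.4% of all genes. These genes had 2.8 probe sets each and all genes 1.92. With a gene's median probe set value the count was 11, without Magi1 and Magi3, beside 66.9% of all genes. The 13 included the multi-PDZ scaffolds Mpdz (9.04 ± 0.064) and Magi3 (8.76 ± 0.021). Among them were also Cgn (6.32 ± 0.16) and Cgnl1 (8.96 ± 0.069), which encode cingulin and paracingulin, and Afdn (9.47 ± 0.00023), which encodes afadin. Magi3 was above background on 1 of its 3 probe sets, and Cgn and Afdn each on 1 of 2. The polarity kinase gene Prkci was at 11.03 ± 0.024, Pard3 at 8.34 ± 0.089 and Mpp5, which encodes PALS1, at 9.31 ± 0.055. Ybx3, a ZO-1-binding transcription factor gene, was at 12.97 on replicate 1 and 12.96 on replicate 2. Tjp3, which encodes ZO-3, was not above background (4.80 and 5.06), nor was Patj (5.45 and 5.57).

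Adherens junction and desmosome genes were listed together with Epcam, a cell adhesion gene outside both structures. Of this list 10 of 11 genes were above background, beside 68.4% of all genes, with 2.82 probe sets per gene. E-cadherin, Cdh1, was at 10.31 on replicate 1 and 10.37 on replicate 2, and Epcam at 10.33 and 10.39. The catenin genes Ctnnb1 and Ctnna1 were at 14.04 ± 0.031 and 12.64 ± 0.013. Dsc2, which encodes a desmosomal cadherin, was the exception (4.73 and 4.57). The median of the brightest probe sets was 9.56 in this list, 8.76 in the plaque list, 5.97 over the 9 members and 4.86 over the other claudins; the lists differ in probes and in probe sets per gene, so these medians describe the lists and do not compare amounts of RNA.

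**Figure D4:**
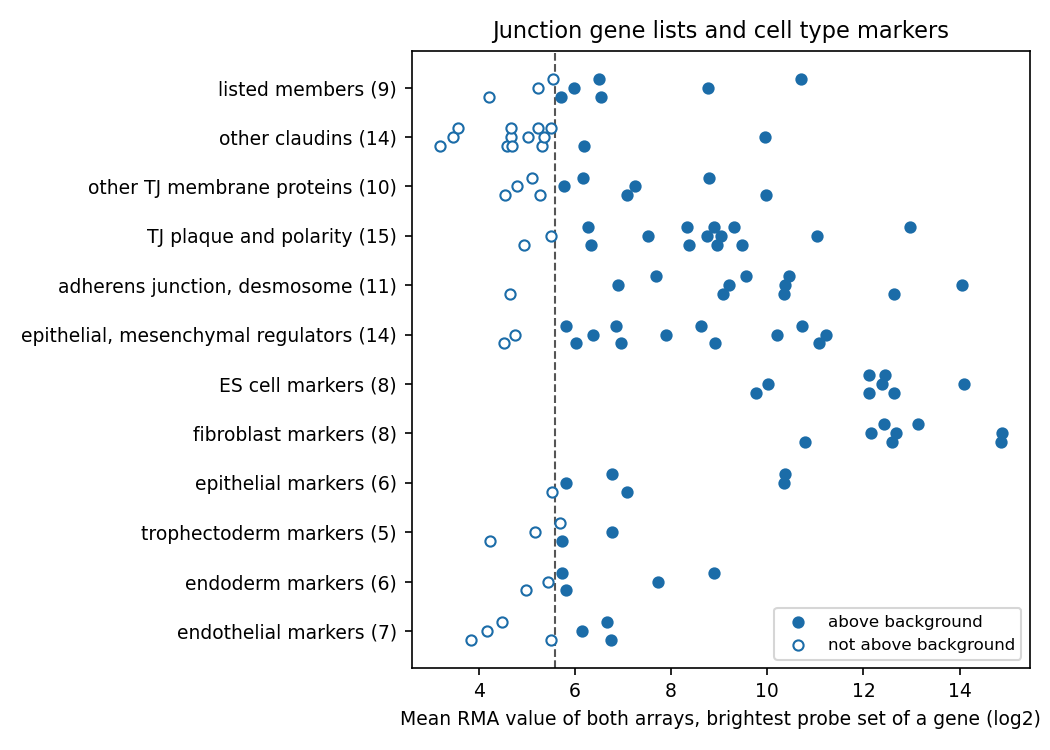
Mean RMA value over both arrays (log2, horizontal axis) by list, 1 point per gene at its brightest probe set, with the number of genes measured in brackets; TJ is tight junction. Filled points were above background, open points were not, and the dashed line is the threshold of 5.59. Most other claudins lie left of the line, and the ES cell and fibroblast markers all lie far to its right.

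Regulators of epithelial genes of both directions were above background, 12 of 14 in all, beside 68.4% of all genes, with 2.43 probe sets per gene. With a gene's median probe set value the count was 11, without Hnf4a, beside 66.9% of all genes. With vomeronasal and taste receptor genes as the background it was 10, without Esrp1 and Grhl1, beside 61.7% of all genes. Grhl2, an activator of claudin and E-cadherin genes, was at 8.01 on replicate 1 and 7.77 on replicate 2, and Klf4 and Klf5 were at 11.23 ± 0.044 and 11.07 ± 0.076. The repressors of epithelial genes Snai1 (6.96 ± 0.050), Snai2 (10.21 ± 0.0059), Zeb1 (10.73 ± 0.030) and Zeb2 (8.62 ± 0.035) were also above background. Ovol1 and Ovol2, epithelial transcription factors, were not. Of the 34 probe sets of this list 4 lay outside the central 95% of their level bin, beside 5.06% of all probe sets, and each was lower on replicate 2. They were 1427046_at (-0.25 log2 units) and 1431877_a_at (-0.39) of Grhl2, 1427001_s_at of Hnf4a (-0.30) and 1419052_at of Ovol1 (-0.41).

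The E-box CAGGTG, searched on both strands in the 250 bases before the start, was present in 5 of 11 windows of the 9 members, beside 17.2% of all 32851 windows in the table. Ocln and Cldn7 have 2 windows each, which overlap at their ends for Ocln, and in both genes 1 of the 2 held a match. The 5 genes with a match were Cldn4, Cldn6, Cldn7, Ocln and F11r, so genes above and below background both held one. The Grainyhead-like motif AACCNGTT was found in 1 of the 11 windows, that of Cldn5, beside 1.79% of all windows, and no window held both motifs. The number of CG dinucleotides was 22 for Tjp1, 17 for F11r, 14 for Cldn1, 12 for Cldn5, 9 for Cldn3 and for Cldn6, and 7 for Cldn4. The 2 windows of Ocln held 22 and 14, and those of Cldn7 held 6 and 10. The median was 12 over the 11 windows and 6 over all windows. Both motifs were chosen after the sequences were seen, and a match is a description of the letters only.

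The RNA was that of a mixed culture. All 8 ES cell markers were above background (9.76 to 14.09, with Pou5f1 at 12.63 ± 0.020), and so were all 8 fibroblast markers (10.78 to 14.87, with Col1a1 at 12.67 ± 0.021), fibroblasts being the usual feeder cells. The log2 values of the fibroblast list summed to 103.5 on replicate 1 and 103.5 on replicate 2, and those of the ES cell list to 95.5 and 95.6. These sums compare the replicates within a list and do not compare amounts of RNA between the lists. Beside 68.4% of all genes, 5 of 6 epithelial markers were above background, with Krt8 at 7.07 ± 0.079 and Krt18 at 6.78 ± 0.016. The others above background, Cdh1, Epcam and Esrp1, were also counted in the junction or regulator lists above. Krt19 was not above background. Of 5 trophectoderm markers 2 were above background, beside 68.4% of all genes. These were Tfap2a (6.76 ± 0.050) and, on 1 of its 2 probe sets, Cdx2 (5.74 ± 0.13). Krt7, Gata3 and Elf5 were not, with Elf5 at 4.13 on replicate 1 and 4.34 on replicate 2. Of 6 endoderm markers 4 were above background, beside 68.4% of all genes. These were Dab2 (8.90 ± 0.024), Gata6 (7.72 ± 0.013), Foxa2 (5.72 ± 0.029) and, on 1 of its 2 probe sets, Sox17 (5.81 ± 0.043). The means of Cdx2, Sox17 and Foxa2 lay below 6.06, the threshold from vomeronasal and taste receptor genes. Gata4 and Afp were not. The part of each cell type in the values of Tjp1, F11r, the claudins or the Snail and Zeb genes was not tested, and in bulk RNA fewer cells of a type and less RNA per cell cannot be told apart.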

How the data were processed

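Total RNA of 2 replicates of 1 ES cell line was hybridised as biotin-labelled cRNA made from 6 µg, per the labels' protocols. The deposited values are log2 expression values made by the authors with RMA, per the submitters' processing notes; the version of RMA, and which arrays it was run on together, were not given in the sources used here. RMA gives quantile-normalized values and no detection call. There is no read depth; the number of arrays limits the precision. Columns of other samples numbered 0.

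Probe sets were named through the platform annotation. The symbols of all 9 members equalled those of RefSeq by gene identifier, and no probe set naming several genes held a member (0). Of 108 entries in 5 junction and 6 marker lists, 104 were measured. The brightest probe set stood for a gene. Level bins were 20 equal-sized groups of all probe sets. Every member and any measured list gene could be named. The members and lists were chosen with earlier results of these data known. With 1 group no test was made. The call and the spread were tried on simulated data. There all expressed genes lay well above the threshold, so the call was not tried on expressed genes near it. In the data 11 of the 17 member probe sets had means within 1 log2 unit of the threshold. Alternatives were other percentiles (90th, 99th), reference genes, probe set rules, centring, loess (fraction 0.3) and each array alone. Python 3.11.15, numpy 2.4.6, pandas 2.3.3 and statsmodels 0.14.6 were used.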

Additional observations from a re-analysis of the deposited data

How the results depend on the processing

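Recomputing each main result under each setting gave 87 values, of which 80 were close to the reported one and 7 were not. Close meant a count within 1.5 times the reported one, an SD within its error, or a largest difference within 0.202 log2 units. A fall of the member genes from 6 to 4 thus counted as close. Lists with most genes above background could not rise beyond 1.5 times, and counts were compared without regard to the number measured. The number of close values is therefore no measure of stability. The array medians were nearly equal before centring (6.01 and 6.01), so that setting could hardly change a count. The count of member probe sets above background, 8 of 17, was 4 of 17 with vomeronasal and taste receptors as the background and 5 of 9 without shared probe sets, which removed Cldn3 and Tjp1 altogether. The count of other claudins, 2 of 14, was 6 of 14 at the 90th percentile, where Cldn2, Cldn9, Cldn14 and Cldn15 passed, and 4 of 13 without shared probe sets, which lowered the threshold to 5.28. Over all claudins the count of 6 of 20 was 11 of 20 at the 90th percentile and 4 to 8 otherwise; this pooled count was added after seeing the data. The SD of the replicate difference, 0.202, was 0.163 over members above background only, and the largest difference, 0.24, was 0.47 over all member probe sets, as these filters leave out or add dim probe sets, those of Ocln among them. Each array alone gave 8 to 8 member probe sets, 6 to 6 member genes, 2 to 3 other claudins, 6 to 7 claudins in all, 6 to 6 other membrane protein genes, 13 to 13 plaque genes, 10 to 10 adherens junction and desmosome genes and 12 to 12 regulators. The count of 6 member genes ranged from 4 to 7 over all settings: Cldn7 was lost at the 99th percentile, Cldn4 and Cldn7 with vomeronasal and taste receptors, and Cldn5 was gained at the 90th percentile, with a gene's median probe set value and without shared probe sets. Its own value was the same in these settings, which lowered the threshold to 5.07, 5.28 and 5.28. Leaving out only _s_at and _x_at probe sets, an alternative chosen after seeing the data, gave 6 of 9 genes. With that median the level of F11r was 7.02 in place of 8.76, that of Cldn3 5.86 in place of 6.49 and that of Cldn1 3.63 in place of 4.22. No paired analysis was possible because there is 1 group with no second group to pair with. Signal over background limits Cldn4, Cldn5, Cldn7 and Ocln, where a silent gene and a weak one would give like values. It also limits Cldn3, whose 4 probe set means all lay within 1 log2 unit of the threshold, 1426332_a_at below it. Of these means only that of 1434651_a_at (6.49) exceeded 6.06, the threshold from vomeronasal and taste receptors.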
